A study of Rattus norvegicus with 9 samples.

Results

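Decidualization is the change of uterine stromal cells into the decidua that receives an embryo. It was examined through 10 genes for morphogens, receptors and transcription factors: Ihh, Bmp2, Hbegf, Ptch1, Prlr, Foxo1, Hand2, Hoxa10, Hoxa11 and Msx1. They were picked by gene symbol on an Affymetrix rat array. The platform annotation used here named a probe set for 9 of the 10 and none for Ptch1. The 9 had 15 probe sets, of which 10 passed the filter on low values, at least 1 for each gene, so that they are 9 of 10973 genes tested. Uterine tissue of female rats was measured on 9 arrays in 3 groups of 3. Control rats (arrays 41, 42 and 43) were untreated, and the sources used here give no stage of their oestrous cycle. Model rats (arrays 21, 22 and 23) received ovulation induction: pregnant horse serum gonadotropin (PMSG, 0.5 U per rat), then the same amount of HCG 48 h later. Treatment rats (arrays 31, 32 and 33) had electroacupuncture added to this induction. It was applied to the acupuncture points Guanyuan and Sanyinjiao in sessions of 15 min, for 7 days beforehand and through the induction. In all, 18 rats were described, 6 per group, without saying which gave each array, so p-values measure the spread between arrays, which may be technical. The sources used here state neither strain, age nor the time from HCG to tissue collection.

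In rodents, progesterone acts on the uterine epithelium to induce Ihh, a secreted Hedgehog protein, which signals to the stroma through its receptor Ptch1. Stromal cells then express regulators and Bmp2, a morphogen needed for decidualization, while the stromal factor Hand2 holds back fibroblast growth factor signals to the epithelium. Hoxa10 and Hoxa11 are homeobox genes needed for a receptive uterus, and Foxo1 and the prolactin receptor Prlr act within the decidua itself.

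Values below are deposited intensities of the brightest probe set of a gene, on a linear scale. Group means and differences are on the scale log2(intensity + 16), where the changes of dim genes come out too small. Array medians were 23.5 to 23.96, and the 40th percentile, which served as the filter on low values, lay between 15.2 and 16.2. Control 43 stood apart. Over probe sets (features that are no independent replicates) it correlated with controls 41 and 42 at 0.9446 and 0.9594, whereas those correlated at 0.9889. It was most similar to model 21 (0.985). Leaving out control 43 took the share of all genes past an adjusted p of 0.05 to 12.6% in model against control and 6.56% in treatment against control. For the genes named, a call that differs without control 43 is given beside the result. Control 43 was singled out by its values in these data, and these calls rest on controls 41 and 42 alone. Leaving out the control most like a model array can itself widen the differences between models and controls. Some of these calls were lost in model against control with model 21 left out as well. Besides Foxo1 and Hbegf, they were Id2, Hoxd9, Stat5a, Hes1, Tgfa, Egfr, Klf15, Cdkn1b, Fkbp4 and Lhcgr. Still passing were Boc, Smo, Id1, Id3, Chrd, Hoxd10, Meis2, Stat5b, Fosl2, Erbb3, Fgfr2, Igfbp3, Igfbp5, Il11ra1 and Nt5e. In treatment against control Igfbp3 was lost, and others were gained, Smo, Smad1 and Sox17 among them. All 9 listed markers of smooth muscle, all 9 of endometrial stroma and 13 of 14 of epithelium passed the filter. The smooth muscle markers were all positive in both control comparisons, with medians of 0.49 for the models and 0.45 for the treatments, and 5 and 4 at an unadjusted p under 0.05. None passed by limma, while 2 and 1 rose without control 43. Their summed intensity was 12759 to 21091 in controls, 21594 to 25656 in models and 20308 to 24962 in treatments. Of 7 listed ovary and oviduct markers 5 had a probe set. Star, Cyp19a1, Amh and Zp3 were at 13.83 or less in every array. Lhcgr, the receptor of HCG, passed the filter, at 11.04 to 19.3 in controls, 18.3 to 29.5 in models and 16.6 to 19.4 in treatments. Its log2 fold change in model against control was 0.36 (adjusted p = 0.353), and it rose by 0.49 without control 43 (adjusted p = 0.0355). In bulk tissue, fewer cells of a type and less RNA per cell cannot be told apart.

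No member passed an adjusted p of 0.05 by limma in any of the 3 comparisons. Over all genes the share that passed was 0.0273% for model against control, 0.510% for treatment against control and 0% for treatment against model. At an unadjusted p under 0.05 there were 3 of 9 members in each comparison, against 12.4%, 17.4% and 14.7% of all genes. In model against control these were Foxo1 and Prlr on the higher side and Hbegf on the lower. In treatment against control they were Prlr on the higher side and Msx1 and Hand2 on the lower. In treatment against model they were Foxo1, Hand2 and Hoxa11, all on the lower side. The median log2 fold change of the members was 0.13, -0.20 and -0.32 in these 3 comparisons, beside 0.016, -0.037 and -0.054 over all genes. In treatment against model 8 of 9 members had a negative log2 fold change, as did 61.1% of all genes. The series names the comparisons with control, which share the same 3 control arrays, and treatment against model was added here.

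**Figure D1:**
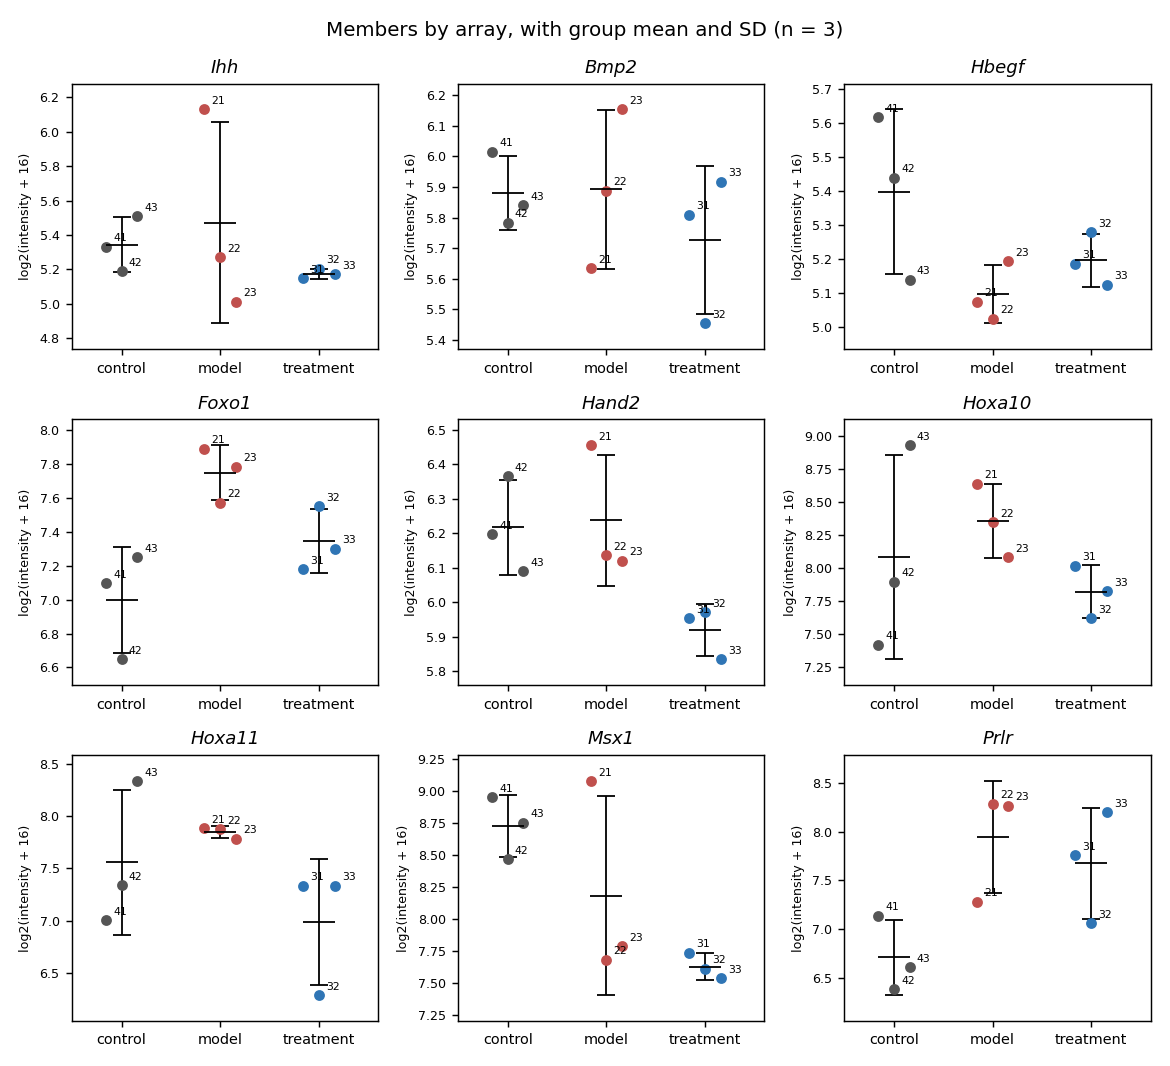
Each panel plots 1 gene on its own vertical scale, log2(intensity + 16), with 1 point per array labelled by its number, and bars for the group mean and SD (n = 3). Model 21 is the highest array for Foxo1, Ihh, Hand2 and Msx1, and control 43 is the highest for Hoxa10 and Hoxa11.

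Ihh, the Hedgehog ligand, was dim, and single arrays set its differences. Its intensity was 24.3, 20.5 and 29.5 in controls 41, 42 and 43, 54.0, 22.6 and 16.3 in models 21, 22 and 23, and 19.5, 20.9 and 20.1 in treatments 31, 32 and 33. It ranked between percentiles 41.6 and 68.0 of its arrays, close to the filter. Model 21 was the highest array and control 43 the next, and all groups overlapped. Its log2 fold change was 0.13 in model against control (95% interval -0.44 to 0.69, adjusted p = 0.829) and turned to -0.20 without model 21. Treatment against control gave -0.17 (-0.73 to 0.40, adjusted p = 0.764). Treatment against model gave -0.30 (-0.86 to 0.27, adjusted p = 0.569), and 0.03 without model 21. Most like Ihh over the 9 arrays were Haus4 (Pearson r = 0.953), Ift80 (0.943) and Dapk2 (0.938).

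Ptch1, which encodes the Hedgehog receptor and is itself a target of the pathway, has no array value here. Its promoter is shown because it holds the motif of the GLI factors, the transcription factors that end the Hedgehog signal, searched as GACCACCCA and its other strand TGGGTGGTC. The motif is in capitals and lies 172 bases before the start. It occurs in 0.385% of 33469 rat promoters of 300 bases (250 before and 50 after a start) from RefSeq, build GRCr8. Among 10 promoters of 8 members, 1 holds it. The Ptch1 promoter spans chr17:1555321-1555620 on the plus strand.
Ptch1: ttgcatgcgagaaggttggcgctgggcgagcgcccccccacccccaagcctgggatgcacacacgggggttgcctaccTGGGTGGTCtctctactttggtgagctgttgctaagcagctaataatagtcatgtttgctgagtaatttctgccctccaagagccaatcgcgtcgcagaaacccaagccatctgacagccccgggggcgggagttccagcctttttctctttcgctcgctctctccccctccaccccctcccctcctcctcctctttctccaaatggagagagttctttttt

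Of 17 listed Hedgehog genes, 8 were tested and 0 passed by limma in any comparison, with 2, 1 and 1 at an unadjusted p under 0.05. Their median log2 fold change was 0.16, 0.03 and -0.27, in the order model against control, treatment against control, treatment against model. The co-receptor Boc had 0.70 in model against control (adjusted p = 0.284) and the signal transducer Smo 0.74 (adjusted p = 0.396). Both rose without control 43, by 0.93 for Boc (adjusted p = 0.0148) and 1.12 for Smo (adjusted p = 0.0161), where 5.70% of all genes rose. In the same setting Boc rose by 0.68 in treatment against control (adjusted p = 0.0486). Gli2, a transcription factor of the pathway, had -0.56 in treatment against model (adjusted p = 0.286). Disp1, which releases the ligand, had 0.21 in model against control (adjusted p = 0.436). Gli1, a target and effector of the pathway, was chosen after its values were seen. Its intensity was 287 in control 43 and 238 in model 21, the 2 arrays with the most Ihh. Elsewhere it was 47.9 and 52.0 in controls 41 and 42, 86.7 and 60.4 in models 22 and 23, and 43.4 to 51.1 in the treatment arrays. Its log2 fold change in treatment against model was -1.02 (SE 0.63, adjusted p = 0.453). Shh, another Hedgehog ligand, was at 5.54 or less in every array. Nr2f2, which encodes the stromal factor COUP-TFII downstream of Ihh, had 0.12, 0.03 and -0.10 in the 3 comparisons (adjusted p = 0.778, 0.956 and 0.814).

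Bmp2 showed small differences, within the spread of the arrays. Its intensity was 48.6, 39.1 and 41.3 in controls 41, 42 and 43, 33.7, 43.2 and 55.2 in models 21, 22 and 23, and 40.1, 27.8 and 44.4 in treatments 31, 32 and 33. No comparison separated the groups. Bmp2 had a log2 fold change of 0.01 in model against control (95% interval -0.35 to 0.38, adjusted p = 0.974), and its sign turned under several alternatives. Treatment against control gave -0.15 (-0.52 to 0.21, adjusted p = 0.659), and in treatment against model -0.16 (-0.53 to 0.20, adjusted p = 0.623). A second probe set, at 19.4 to 36.2, gave -0.08, -0.21 and -0.14. The gene most like Bmp2 over the 9 arrays was Grem1 (r = 0.936), a secreted inhibitor of bone morphogenetic proteins, before Naglu (0.928) and Dido1 (0.926).

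Of 22 listed genes of the bone morphogenetic protein (BMP) pathway, 19 were tested and 0 passed by limma in any comparison. At an unadjusted p under 0.05, 6 were higher and 0 lower in model against control, 1 higher and 4 lower in treatment against control, whereas treatment against model had 0 higher and 7 lower. Id2, a direct target of the pathway, was at 250, 261 and 451 in controls 41, 42 and 43, 601, 752 and 615 in models 21, 22 and 23, and 449, 171 and 283 in treatments 31, 32 and 33. All model arrays thus lay above all others. Its log2 fold change was 1.04 in model against control (adjusted p = 0.313) and -1.17 in treatment against model (adjusted p = 0.286). Chrd, an inhibitor that binds BMP ligands, had 1.33 in model against control (adjusted p = 0.279) and 1.37 in treatment against control (adjusted p = 0.152). Smad1, a signal transducer, had -0.57 in treatment against control (adjusted p = 0.0962) and Bmp7, a ligand, -0.43 (adjusted p = 0.0967). Without control 43, Id1, Id2, Id3 and Chrd rose in model against control, by 1.22, 1.30, 2.18 and 1.74 (adjusted p = 0.0118, 0.0392, 0.00925 and 0.0165). That setting gave 2 calls in treatment against control, Chrd with a rise of 1.78 (adjusted p = 0.0175) and Bambi, a decoy receptor, which fell by 1.31 (adjusted p = 0.0172). Bmp4, a ligand below the filter and chosen after its values were seen, was at 35.7 in model 21 and 30.2 in control 43, and at 8.96 to 14.2 elsewhere.

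Hbegf, the epidermal growth factor receptor ligand that uterine epithelium makes near the embryo, was dim and highest in controls 41 and 42. Its intensity was 33.1, 27.4 and 19.2 in controls 41, 42 and 43, 17.7, 16.5 and 20.6 in models 21, 22 and 23, and 20.4, 22.8 and 18.9 in treatments 31, 32 and 33. It ranked between percentiles 41.7 and 57.8, near the filter. Models and treatments overlapped, and of the controls only array 43 lay within their range. Hbegf had a log2 fold change of -0.30 in model against control (95% interval -0.57 to -0.04, adjusted p = 0.371). Without control 43 it fell by 0.43 and passed (SE 0.09, adjusted p = 0.0211), as did 6.92% of genes, and without control 43 and model 21 it had -0.42 (adjusted p = 0.0516). Treatment against control gave -0.20 (-0.47 to 0.06, adjusted p = 0.398), and in treatment against model 0.10 (-0.17 to 0.37, adjusted p = 0.688).

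Epithelial markers moved with Hbegf. None of the 13 tested passed in model against control by limma, 6 at an unadjusted p under 0.05, and all 13 had a negative log2 fold change, with a median of -0.86. Without control 43, where Hbegf passed, 11 of 13 fell, with a median of -1.60, and without control 43 and model 21 it was 10 of 13. In treatment against control 0 of 13 passed, 5 at an unadjusted p under 0.05, and without control 43 there were 5, all lower. Their summed intensity ran from 4765 to 18773 in controls, with control 43 lowest, from 3677 to 4574 in models and from 4054 to 6237 in treatments. By the epithelial score, the mean log2 deviation of these markers, controls 41 and 42 stood apart from all other arrays, as they did for Hbegf, so no pooled correlation is given. Over the other 7 arrays Hbegf and the score had r = 0.641, a description with no test. Single epithelial markers differed in control 43. Cldn3 (1047) and Cldn4 (134) had their highest value there, and Epcam was at 1310 there beside 1423 in control 42. Krt8, Krt19, Elf3 and Muc1 were at 234, 162, 39.0 and 21.05 in control 43, beside 3006, 3036, 645 and 119 in control 42. The share of epithelium in the difference of Hbegf was not tested. The genes most like Hbegf were Syngr1 (r = 0.981), the tight junction gene Tjp3 (0.977) and Capn1 (0.975).

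Of 13 listed genes of the epidermal growth factor family and its receptors, 8 were tested and 0 passed by limma, with 3, 1 and 2 at an unadjusted p under 0.05 in the 3 comparisons. The ligand Tgfa had -0.57 in model against control (adjusted p = 0.281) and the receptor Erbb3 -0.23 (adjusted p = 0.325). Without control 43, Tgfa fell by 0.70 (adjusted p = 0.0315), Erbb3 fell by 0.31 (adjusted p = 0.0212) and the receptor Egfr rose by 1.02 (adjusted p = 0.0232). Adam17, which sheds ligands of the family from the membrane, had -0.33 in treatment against model (adjusted p = 0.286). Erbb2 had -0.20 in treatment against control (adjusted p = 0.447). Areg, a ligand below the filter and chosen after its values were seen, was at 45.9 in control 43 and at 3.69 to 4.9 in every other array.

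Prlr, the prolactin receptor, had the largest mean difference of the 9 members between model and control. Its intensity was 125, 67.4 and 81.4 in controls 41, 42 and 43, 139, 296 and 292 in models 21, 22 and 23, and 201, 118 and 278 in treatments 31, 32 and 33. All 3 model arrays and treatments 31 and 33 lay above every control, and treatment 32 lay just below control 41. The log2 mean was 6.71 ± 0.39 (SD, n = 3) in controls, 7.94 ± 0.58 in models and 7.67 ± 0.57 in treatments. Prlr had a log2 fold change of 1.24 in model against control (95% interval 0.40 to 2.07, adjusted p = 0.283) and 0.97 in treatment against control (0.13 to 1.80, adjusted p = 0.244). It was -0.27 in treatment against model (-1.11 to 0.57, adjusted p = 0.729), and 0.03 without treatment 32. Prlr and Foxo1 were the members whose model and control arrays did not overlap, both with models higher, where 7.79% of genes had such a separation. The other 2 probe sets of Prlr stayed below the filter. Closest to Prlr over the arrays were Retreg1 (r = 0.958), Slc10a1 (0.956) and Fbxo9 (0.95).

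Of 10 listed genes of the prolactin axis, 7 were tested and 0 passed by limma, with 2, 4 and 1 at an unadjusted p under 0.05 in the 3 comparisons. Jak2, the kinase bound to the receptor, was at 94.3, 87.0 and 74.1 in controls 41, 42 and 43, 73.3, 80.3 and 206 in models 21, 22 and 23, and 225, 256 and 275 in treatments 31, 32 and 33. The treatment arrays lay above all others. Jak2 had a log2 fold change of 1.41 in treatment against control (adjusted p = 0.107) and 1.11 in treatment against model (adjusted p = 0.286). Cish, a feedback inhibitor, had -0.49 in treatment against control (adjusted p = 0.208), and Socs1, another, 0.17 (adjusted p = 0.241). Stat5a, a transcription factor that the receptor activates, had -0.72 in model against control (adjusted p = 0.331). Without control 43, Stat5a fell by 0.97 (adjusted p = 0.0239) and Stat5b, its close relative, fell by 0.64 (adjusted p = 0.0107) in model against control. Stat5b fell by 0.58 (adjusted p = 0.016) and Cish fell by 0.65 (adjusted p = 0.0318) in treatment against control. The ligand Prl and the decidual prolactin Prl8a2 were at 6.02 or less and 5.34 or less in every array.

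Foxo1, the forkhead factor that drives decidual genes, was highest in the models. Its intensity was 121, 84.3 and 136 in controls 41, 42 and 43, 222, 174 and 205 in models 21, 22 and 23, and 129, 172 and 142 in treatments 31, 32 and 33. Every model array lay above every control and every treatment array, with model 22 just above treatment 32. The log2 mean was 7.00 ± 0.31 (SD, n = 3) in controls, 7.75 ± 0.16 in models and 7.35 ± 0.19 in treatments. This was a log2 fold change of 0.75 in model against control (95% interval 0.35 to 1.15, adjusted p = 0.199). Without control 43 it rose by 0.88 and passed (SE 0.17, adjusted p = 0.0204), beside the 5.70% of genes that rose, and without control 43 and model 21 it had 0.81 (adjusted p = 0.0509). In treatment against control it was 0.35 (-0.05 to 0.74, adjusted p = 0.338), and in treatment against model -0.40 (-0.80 to -0.01, adjusted p = 0.337). The other 2 probe sets of Foxo1 stayed below the filter. Closest to Foxo1 were Sephs2 (r = 0.934), Lzts2 (0.932) and Mybbp1a (0.93).

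**Figure D2:**
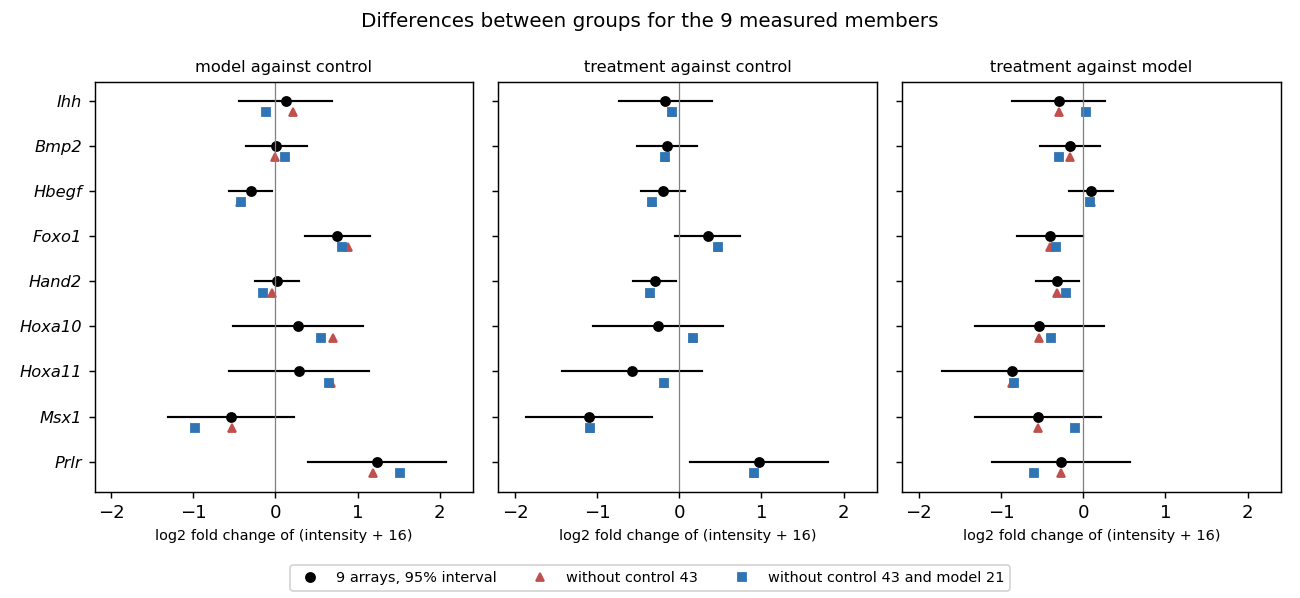
Points and bars give the log2 fold change of (intensity + 16) with its 95% interval for the 9 measured members, 1 panel per comparison, and the smaller symbols give the value without control 43 and without control 43 and model 21. In model against control, the 9-array values of Prlr (1.24) and Foxo1 (0.75) lie farthest to the right and that of Msx1 (-0.54) farthest to the left, and squares hide triangles where both values coincide.

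Igfbp1, a secreted decidual product and known target of FOXO1, rose in both induced groups. Its intensity was 10.96, 17.2 and 40.8 in controls 41, 42 and 43, 506, 896 and 637 in models 21, 22 and 23, and 351, 576 and 891 in treatments 31, 32 and 33. All 6 induced arrays lay above all controls, as they did for 2.58% of genes and for 0 of the 9 members. Its log2 fold change was 4.19 in model against control (SE 0.38, adjusted p = 0.0355), 3.97 in treatment against control (SE 0.38, adjusted p = 0.0163) and -0.22 in treatment against model (adjusted p = 0.792). All 12 listed FOXO1-responsive genes were tested, and Igfbp1 was the 1 that passed in each control comparison. Of the 12, 9 were positive in model against control, with a median of 0.52 beside 0.016 over all genes. For treatment against control the median was -0.04, and for treatment against model -0.26, beside -0.037 and -0.054 over all genes. Klf15, a zinc finger factor, had 0.79 in model against control (adjusted p = 0.254). Without control 43, Klf15 rose by 0.91 (adjusted p = 0.0353) and Cdkn1b, an inhibitor of the cell cycle, by 0.99 (adjusted p = 0.0312). Of 15 listed decidual products, 13 were tested. In model against control 7 were positive and 6 negative, with a median of 0.05. Igfbp1 was again the 1 that passed. Igfbp3 and Igfbp5, binding proteins of the same family, had 1.85 (adjusted p = 0.254) and 1.52 (adjusted p = 0.331) in model against control. Without control 43 they rose by 2.35 (adjusted p = 0.0134) and 2.14 (adjusted p = 0.0108) in model against control, and by 1.71 (adjusted p = 0.0448) and 1.52 (adjusted p = 0.0365) in treatment against control. In that setting Il11ra1, a receptor subunit for interleukin 11, also rose, by 0.82 (adjusted p = 0.0151), and Fkbp4, a cochaperone of the progesterone receptor, fell by 0.52 (adjusted p = 0.0446) in model against control. On the lower side over all 9 arrays, Gja1 had -0.56 in model against control (adjusted p = 0.388) and -0.73 in treatment against control (adjusted p = 0.185). Cdkn1a had -0.58 in model against control (adjusted p = 0.426). Wnt4, below the filter and chosen after its values were seen, was at 110 and 76.3 in controls 41 and 42 and at 7.17 to 15.2 in every other array, control 43 included.

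Hand2, the stromal factor that restrains fibroblast growth factor signals, was lowest in the treatment arrays. Its intensity was 57.4, 66.4 and 52.1 in controls 41, 42 and 43, 71.8, 54.3 and 53.5 in models 21, 22 and 23, and 46.0, 46.7 and 41.0 in treatments 31, 32 and 33. Every treatment array lay below every other array. In treatment against control, Hand2 and Msx1 were the members separated in this way, both lower, where 13.9% of genes were. The log2 fold change was -0.30 in treatment against control (95% interval -0.56 to -0.04, adjusted p = 0.247) and -0.32 in treatment against model (-0.58 to -0.06, adjusted p = 0.293). It was 0.02 in model against control (-0.24 to 0.28, adjusted p = 0.946). The other probe set of Hand2 stayed below the filter and ran in the other direction. It was at 7.61, 8.77 and 7.60 in treatments 31, 32 and 33, above every other array, where it was at 6.24 to 7.48. The genes most like Hand2 were Prpf4b (r = 0.928), Vps37c (0.927) and Luc7l (0.925).

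Of 11 listed fibroblast growth factors and receptors, 6 were tested and 0 passed by limma, with 2, 2 and 1 at an unadjusted p under 0.05 in the 3 comparisons. The receptor Fgfr1 had -0.41 in treatment against control (adjusted p = 0.187) and -0.52 in treatment against model (adjusted p = 0.286). The receptor Fgfr2 had 0.53 in model against control (adjusted p = 0.371) and rose by 0.77 without control 43 (adjusted p = 0.0151). The ligands Fgf1 and Fgf2 had 0.21 (adjusted p = 0.266) and 0.26 (adjusted p = 0.29) in treatment against control. Of 19 listed decidual transcription factors, Foxo1 and Hand2 among them, 18 were tested and 0 passed by limma, with 3, 5 and 5 at an unadjusted p under 0.05. Stat3, which carries the signal of leukaemia inhibitory factor in the epithelium, was at 366, 401 and 429 in controls 41, 42 and 43, 314, 306 and 314 in models 21, 22 and 23, and 271, 294 and 296 in treatments 31, 32 and 33. Both induced groups lay below the controls. Stat3 had -0.45 in treatment against control (adjusted p = 0.0663), and fell by 0.40 without control 43 (adjusted p = 0.0365). Foxo3, a relative of Foxo1, had -0.56 (adjusted p = 0.171) and Sox17, an epithelial and endothelial factor, -1.02 (adjusted p = 0.203) in the same comparison. Klf9, a partner of the progesterone receptor, had -0.87 in treatment against model (adjusted p = 0.286). Without control 43, 1 of the 18 rose in model against control, Foxo1, and 4 fell: Stat5a, Stat5b, Fosl2 by 0.50 (adjusted p = 0.0124) and Hes1, a target of Notch, by 0.64 (adjusted p = 0.0392).

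Hoxa10, a homeobox gene of stroma and epithelium, varied most among the controls. Its intensity was 155, 223 and 473 in controls 41, 42 and 43, 383, 310 and 255 in models 21, 22 and 23, and 244, 181 and 211 in treatments 31, 32 and 33. Control 43 was the highest array and control 41 the lowest, and all models lay above all treatments. In treatment against model 4 of 9 members, Foxo1, Hand2, Hoxa10 and Hoxa11, had all treatment arrays lower, where 19.9% of genes did. The log2 fold change was 0.27 in model against control (95% interval -0.52 to 1.06, adjusted p = 0.728) and 0.70 without control 43 (adjusted p = 0.0657). In treatment against control it was -0.26 (-1.05 to 0.53, adjusted p = 0.733) and turned to 0.16 without control 43. Treatment against model gave -0.53 (-1.32 to 0.26, adjusted p = 0.472).

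Hoxa11, the neighbour of Hoxa10 in the same cluster, ran in nearly the same order of arrays. Its intensity was 113, 146 and 307 in controls 41, 42 and 43, 220, 218 and 205 in models 21, 22 and 23, and 145, 62.2 and 145 in treatments 31, 32 and 33. Control 43 was again the highest array, and treatment 32 the lowest. The log2 fold change was 0.29 in model against control (95% interval -0.57 to 1.14, adjusted p = 0.735), 0.01 without control 41 and 0.68 without control 43. In treatment against control it was -0.57 (-1.43 to 0.28, adjusted p = 0.45), and -0.19 without control 43. Treatment against model gave -0.86 (-1.72 to -0.01, adjusted p = 0.339), and -0.51 without treatment 32. Over the 9 arrays Hoxa10 and Hoxa11 correlated at r = 0.866 (exact permutation p = 0.00245, two-sided, adjusted 0.0404 over 99 pairs) and rho = 0.967 (exact permutation p = 0.000165, adjusted 0.00818). Without treatment 32 and control 43 r was 0.916, and within groups it was 0.838. The permutations here and below ran over all 9 arrays regardless of group. Their p-values thus do not separate group differences from association between arrays, and r within groups was not tested. A separate probe set for Hoxa11-as, the antisense transcript of the locus, was at 81.3, 116 and 278 in controls 41, 42 and 43, 213, 164 and 168 in models 21, 22 and 23, and 91.5, 51.9 and 144 in treatments 31, 32 and 33. Its highest and lowest arrays were those of Hoxa11. The genes most like Hoxa10 were Fstl1 (r = 0.983), which encodes a follistatin-like secreted protein, Armcx4 (0.98) and Tmem158 (0.979), and those most like Hoxa11 were Cnrip1, Runx1t1 and Crebl2 (0.985 each).

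The promoters of Foxo1, Hand2, Hoxa11 and Hoxa10 (both of its starts in the table) are shown because these 4 members had lower values in every treatment array than in every model array. They come from RefSeq, build GRCr8, and each holds 250 bases before and 50 after the start. Capitals mark the motif GGCGCC of the BMP effectors SMAD1 and SMAD5, which reads the same on both strands and is in 11% of the 33469 promoters. It lies 135 and 53 bases before the second start of Hoxa10 and 78 bases before the start of Hand2. Thus 2 of these 5 windows hold it, and 2 of all 10 member promoters. The windows of Foxo1, Hoxa11 and the first start of Hoxa10 have no such letters and are in lower case throughout. A forkhead motif for FOXO factors, GTAAACA or TGTTTAC, is in 3.78% of promoters and 0 of the 10 member promoters, and a paired steroid receptor motif is in 0.0329% and 0 of 10. Foxo1 spans chr2:138462724-138463023 on the plus strand. On the minus strand, Hand2 spans chr16:37931439-37931738, Hoxa11 chr4:82676752-82677051, and the starts of Hoxa10 chr4:82671441-82671740 and chr4:82665873-82666172.
Foxo1: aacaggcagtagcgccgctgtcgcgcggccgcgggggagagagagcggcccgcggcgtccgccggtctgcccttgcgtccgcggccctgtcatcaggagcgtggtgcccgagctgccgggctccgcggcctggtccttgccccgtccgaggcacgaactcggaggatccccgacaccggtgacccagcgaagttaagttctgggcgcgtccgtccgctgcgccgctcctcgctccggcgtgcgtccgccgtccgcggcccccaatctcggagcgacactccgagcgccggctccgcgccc
Hand2: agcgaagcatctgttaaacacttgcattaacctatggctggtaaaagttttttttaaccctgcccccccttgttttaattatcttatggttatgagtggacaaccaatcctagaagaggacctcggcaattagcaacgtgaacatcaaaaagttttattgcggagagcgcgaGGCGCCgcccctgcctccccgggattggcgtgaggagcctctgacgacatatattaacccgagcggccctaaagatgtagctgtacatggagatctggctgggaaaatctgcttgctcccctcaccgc
Hoxa11: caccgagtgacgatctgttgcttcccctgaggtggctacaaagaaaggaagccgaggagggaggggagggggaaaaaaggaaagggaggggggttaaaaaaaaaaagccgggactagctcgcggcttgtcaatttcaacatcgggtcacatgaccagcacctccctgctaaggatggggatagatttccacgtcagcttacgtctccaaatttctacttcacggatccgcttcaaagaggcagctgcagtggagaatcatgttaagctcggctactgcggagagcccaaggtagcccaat
Hoxa10, first start: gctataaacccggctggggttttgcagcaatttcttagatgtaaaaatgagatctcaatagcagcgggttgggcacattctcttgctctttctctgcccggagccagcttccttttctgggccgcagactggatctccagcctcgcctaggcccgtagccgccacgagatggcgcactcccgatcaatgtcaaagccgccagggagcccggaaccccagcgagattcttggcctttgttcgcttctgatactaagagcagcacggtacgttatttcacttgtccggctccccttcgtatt
Hoxa10, second start: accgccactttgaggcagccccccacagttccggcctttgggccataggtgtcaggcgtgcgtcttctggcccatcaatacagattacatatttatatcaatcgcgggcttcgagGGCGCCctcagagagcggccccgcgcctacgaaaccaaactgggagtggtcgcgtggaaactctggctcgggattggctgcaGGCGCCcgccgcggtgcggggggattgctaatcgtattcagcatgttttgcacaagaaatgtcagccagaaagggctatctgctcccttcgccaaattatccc

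Hoxa10 followed marker scores as well. With the score of 5 oestrogen-induced genes (C3, Pgr, Greb1, Lcn2 and Muc1) it correlated at r = -0.937 (exact permutation p = 1.1e-05, two-sided, adjusted 0.00109 over 99 pairs) and rho = -0.983 (exact permutation p = 4.96e-05, adjusted 0.00491). Without model 21 and control 43 r was -0.951, and within groups -0.967. Hoxa11 had rho = -0.933 with this score (exact permutation p = 0.00075, adjusted 0.0247) and r = -0.74 (exact permutation p = 0.0255, adjusted 0.199). Muc1 is also in the epithelial list. With the epithelial score Hoxa10 had r = -0.679 (exact permutation p = 0.0447, adjusted 0.29) and rho = -0.817 (exact permutation p = 0.0108, adjusted 0.107). Within groups its r was -0.97. The summed intensity of the 5 oestrogen-induced genes ran from 254 to 6875 in controls, 584 to 3699 in models and 3754 to 5430 in treatments. With the score of 9 stromal markers, Hoxa10 had r = 0.877 (exact permutation p = 0.00193, adjusted 0.0381) and rho = 0.9 (exact permutation p = 0.00203, adjusted 0.0502). Without treatment 32 and control 41 r was 0.766, and within groups 0.921. The summed stromal intensity overlapped between groups, at 7435 to 14026 in controls, 10439 to 13787 in models and 7814 to 12483 in treatments. Among the stromal markers Nt5e rose in treatment against control, by 1.11 (adjusted p = 0.0311), and had 0.98 in model against control (adjusted p = 0.119). Without control 43 it rose by 1.10 (adjusted p = 0.0151) and 0.97 (adjusted p = 0.0189). Hoxa11 had r = 0.954 with the endothelial score (exact permutation p = 0.00022, adjusted 0.0109) and rho = 0.85 (exact permutation p = 0.00607, adjusted 0.0752). Without treatment 32 and control 43 its r was 0.844, and within groups 0.94. Hbegf had r = -0.881 with the stromal score (exact permutation p = 0.00142, adjusted 0.0353) and rho = -0.85 (exact permutation p = 0.00607, adjusted 0.0752). Without treatment 32 and control 41 its r was -0.856, and within groups -0.939. By r, 6 of 99 pairs were past an adjusted 0.05. The pair not detailed here is Hbegf with the epithelial score, where controls 41 and 42 stood apart. By rho that pair did not pass (adjusted exact permutation p = 0.0744). The part of cell makeup or cycle stage in the differences of the members was not tested.

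**Figure D3:**
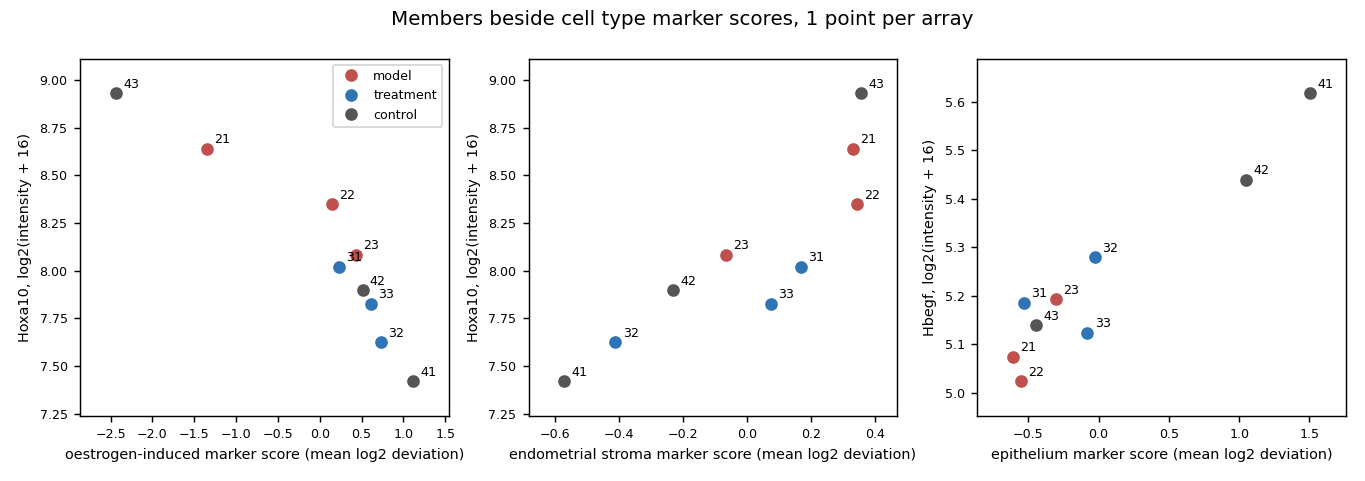
The panels plot Hoxa10 against the oestrogen-induced score, Hoxa10 against the stromal score and Hbegf against the epithelial score, both axes on a log2 scale and 1 labelled point per array coloured by group. Hoxa10 falls along the oestrogen-induced score (r = -0.937), and controls 41 and 42 stand alone at the high end for Hbegf and epithelium.

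Of 16 listed homeobox genes and partners, 11 were tested and 0 passed by limma, with 1, 2 and 4 at an unadjusted p under 0.05 in the 3 comparisons. In treatment against model 10 of 11 had a negative log2 fold change, with a median of -0.53, beside 61.1% and a median of -0.054 over all genes. Hoxd10, a later gene of another Hox cluster, was at 540, 479 and 952 in controls 41, 42 and 43, 1093, 749 and 729 in models 21, 22 and 23, and 528, 510 and 496 in treatments 31, 32 and 33. As with Hoxa10, control 43 was high and every model lay above every treatment. Its log2 fold change was -0.70 in treatment against model (adjusted p = 0.292), and Hoxa9 had -0.79 (adjusted p = 0.325). Meis1, a cofactor of Hox proteins, had -0.49 (adjusted p = 0.325), and Emx2, a homeobox gene that limits endometrial growth, -0.31 in treatment against control (adjusted p = 0.241). Without control 43, Hoxd9, Hoxd10 and Meis2 rose in model against control, by 0.57, 0.71 and 1.81 (adjusted p = 0.0463, 0.0368 and 0.0138).

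Msx1, a homeobox gene whose expression falls around implantation in the mouse, was lower in 5 of 6 induced arrays than in any control. Its intensity was 478, 338 and 415 in controls 41, 42 and 43, 524, 189 and 205 in models 21, 22 and 23, and 197, 180 and 169 in treatments 31, 32 and 33. Model 21 was the exception and the highest array of all. The log2 mean was 8.72 ± 0.24 (SD, n = 3) in controls, 8.18 ± 0.78 in models and 7.63 ± 0.10 in treatments. The log2 fold change in treatment against control was -1.10 (95% interval -1.86 to -0.33, adjusted p = 0.174). It passed without model 21 (adjusted p = 0.0319), with only the 6 arrays compared (adjusted p = 0.0488) and, at -1.08, without control 43 and model 21 (adjusted p = 0.0107), where 6.24% of genes fell. That share is for the last setting. With any 1 array left out, at most 6.56% of genes passed in treatment against control, in either direction. No share is given here for the 6 arrays alone. Model against control gave -0.54 (-1.31 to 0.23, adjusted p = 0.495). Without model 21 it was -0.99 (adjusted p = 0.151), and without control 43 and model 21 it fell by 0.97 and passed (adjusted p = 0.0259), where 4.48% of genes fell. Treatment against model gave -0.55 (-1.32 to 0.21, adjusted p = 0.447), and -0.11 without model 21. By the same measure, the genes nearest Msx1 were Sort1 (r = 0.946), Zfp91 (0.932) and Itgb3bp (0.932). Msx2, its paralogue, stayed below the filter and was chosen after its values were seen. Its brightest probe set was at 66.4 and 45.1 in controls 41 and 42 and at 7.64 to 12.8 elsewhere, 8.68 in control 43.

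**Figure D4:**
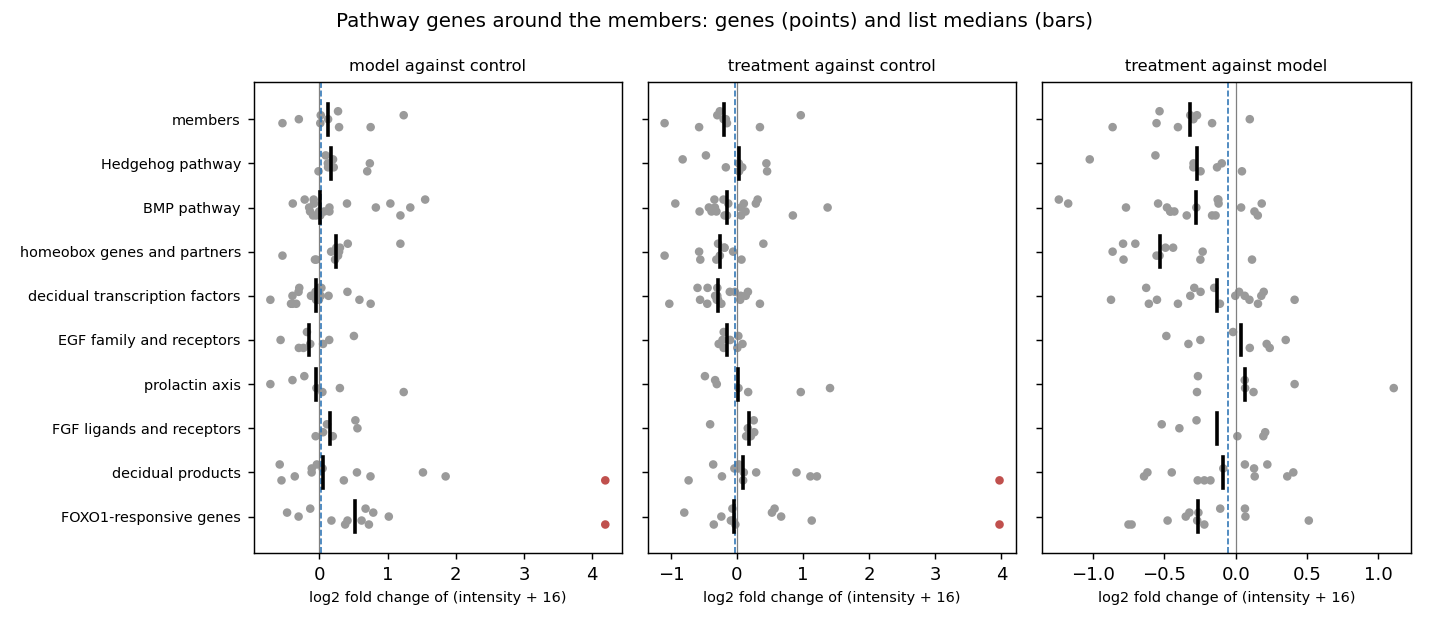
Each grey point is 1 tested gene of a list at its log2 fold change of (intensity + 16), red where it passed an adjusted p of 0.05, with a black bar at the list's median and a dashed line at the median of all genes. Igfbp1 is the red point, in the lists of decidual products and FOXO1-responsive genes, and in treatment against model the members and the homeobox list have medians of -0.32 and -0.53.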

How the data were processed

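Biotin-labelled total RNA of uterine tissue was measured on 9 Affymetrix arrays. The deposited values are intensities per probe set on a linear scale. MAS5 is named in the submitters' processing notes, and the sources used here give no settings, scaling between arrays or detection calls for it, so the background level is unknown. From 31099 probe sets, the 57 controls of the manufacturer were left out. The platform annotation gave 1 symbol for 20826, several for 436, which were left unnamed, and none for 9780.

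Intensities were taken as log2(intensity + 16). Probe sets at or above percentile 40 of their array on at least 3 of 9 arrays were kept (19326), and the probe set with the highest mean log2 value stood for each of 10973 genes. limma 3.58.1 in R 4.3.3 fitted all 9 arrays with 3 contrasts and eBayes with a variance trend, with Benjamini-Hochberg adjustment over all genes and a threshold of 0.05. The fit was tested on simulated data with independent noise for each gene and array. No shift shared by the genes of an array was simulated, so arrays that stand apart were not covered. The small number of arrays limits the precision. Hoxa11 was matched to its promoter by symbol, since its platform gene identifier was not found in the RefSeq table used. Named genes were the members, of each pathway list the other genes that passed or else up to 4 with the smallest p in any comparison, and the 3 most like each member by Pearson r. Other genes were named for their role or their values, some after these were seen. Members and lists were chosen with earlier results of these data known. Alternatives were other pseudocounts, filters, normalizations, probe set rules, variance models and left-out arrays. Each array was left out in turn, and control 43 was followed through the text because of its values in these data. Leaving out control 43 and model 21 together was also chosen after seeing the data.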

Additional observations from a re-analysis of the deposited data

How the results depend on the processing

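Of 27 member differences, 20 kept their sign under every alternative, and 17 of 564 recomputed values changed sign. In model against control, Bmp2 turned to -0.0083 with quantile normalization, -0.032 with the mean of probe sets, -0.077 with the other probe set and ran from -0.12 to 0.14 with 1 array left out. With 1 array left out, Ihh ran from -0.20 to 0.36, Hand2 from -0.090 to 0.094 and Hoxa10 from -0.058 to 0.70 in model against control, Hoxa10 from -0.59 to 0.16 in treatment against control, and Ihh from -0.53 to 0.033 and Prlr from -0.60 to 0.035 in treatment against model. Without control 43 and model 21, Ihh was -0.12 and Hand2 -0.15 in model against control, Hoxa10 0.16 in treatment against control and Ihh 0.033 in treatment against model.

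Genes passing in model against control numbered 3, against 1 with no filter, 1 with the 6 compared arrays only, 825 without control 43 and model 21, and 0 to 1384 with 1 array left out (1384 without control 43). In treatment against control they numbered 56, against 904 without control 43 and model 21 and 0 to 720 with 1 array left out (720 without control 43). In treatment against model they numbered 0, and 0 to 3 with 1 array left out (3 without model 23). Members passing numbered 0 to 2 in model against control and 0 to 1 in treatment against control with 1 array left out. There was 1 in each without control 43 and model 21, and 1 in treatment against control with the 6 compared arrays only. For the latter, the number of all genes passing is not given here. The cause was not tested. Groups share no replicate number, only a last digit. With that digit as a replicate block, 4, 27 and 0 genes passed in the 3 comparisons and 0 members. Quantile normalization and median centring moved the median of all genes by under 0.1. A filter at percentile 60 dropped Ihh and Hbegf. With 3 arrays a group and no detection calls, small differences of dim genes were not detectable.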
